A study of Mus musculus with 12 samples.

Results

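The NK homeobox genes examined here were Nkx2-1, Nkx2-2, Nkx2-3, Nkx2-4, Nkx2-5, Nkx2-9, Nkx6-1 and Nkx6-2, 8 of the 21951 protein-coding genes in the GENCODE M21 annotation of the mouse genome. They were taken by name. For each gene, the H3K4me3 peaks of 4 brain regions were read in a window that joined the gene body with 5 kb on either side of every annotated transcription start site (TSS). A peak counted when it shared at least 1 bp with this window. The covered bases of a gene were the bases of its window under peaks.

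H3K4me3, trimethylation of lysine on histone H3, was profiled by CUT&Tag, in which an antibody directs a transposase to chromatin carrying the mark. The tissue came from wild-type C57BL/6J mouse embryos at E12.5, the embryonic age given in the study's methods, although the protocol in the labels names an older stage as well. The medial (MGE), lateral (LGE) and caudal (CGE) ganglionic eminences and the somatosensory cortex (CTX) were dissected, with no treatment and with tissue of several embryos pooled. The labels name 2 replicates for each region in 12 libraries, and the replicates had been merged, so that each region was represented by 1 peak list without a replicate error. No test between regions was therefore possible. Nuclei of all cell types in a region entered the assay, and a mark in fewer cells and a weaker mark per cell cannot be told apart.

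NK homeobox genes encode transcription factors that bind DNA through a homeodomain. In the ventral neural tube, Sonic hedgehog signalling turns on Nkx2 and Nkx6 genes in nested domains, where they set progenitor identity and repress dorsal programmes. In the forebrain, Nkx2-1 is the defining factor of the MGE, the source of many cortical interneurons. H3K4me3 marks the starts of active and poised genes, and it commonly lies over stretches rich in CpG, the dinucleotide in which vertebrate DNA is methylated.

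The lists held between 17284 and 25339 peaks. Peaks were wider in the LGE and CGE lists (medians of 1168 and 1240 bp) than in those of CTX and MGE (701 and 563 bp), so widths and covered bases were set against the other genes or peaks of the same list as percentiles. The percentile of a gene is the share of protein-coding genes with fewer covered bases in that list. Genes with no peak count in this share, and only 65.1% to 66.8% of genes had a peak in a list. Any gene with a peak therefore lies far above the bottom of this scale. The running numbers of the peaks skipped 33 numbers in the MGE, 59 in the LGE, 64 in the CGE and 31 in the CTX, and the peaks behind those numbers were not analysed here. The windows of 6 of the 8 genes did not reach a stretch with a skipped number. The exceptions were Nkx2-4 and Nkx2-2, which such a stretch reached in all 4 lists, so their values count listed peaks only.

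Sequences are shown for the stretches on which the comparison turns, read from GRCm38 on the strand of each gene, with each CpG in capitals. The first 3 lay under a peak in all 4 lists. They come from the coding sequence of Nkx6-2 (chr7:139582271-139582468, minus strand), from upstream of Nkx6-1 (chr5:101665151-101665450, minus strand) and from beyond the 3′ end of Nkx2-3 (chr19:43616452-43616679, plus strand). For Nkx6-1 the 300 bases nearest the gene are given.
Nkx6-2: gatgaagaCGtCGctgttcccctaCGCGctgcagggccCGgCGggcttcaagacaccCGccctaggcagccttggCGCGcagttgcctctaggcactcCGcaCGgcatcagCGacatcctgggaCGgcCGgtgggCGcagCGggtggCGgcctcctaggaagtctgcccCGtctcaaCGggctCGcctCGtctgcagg
Nkx6-1: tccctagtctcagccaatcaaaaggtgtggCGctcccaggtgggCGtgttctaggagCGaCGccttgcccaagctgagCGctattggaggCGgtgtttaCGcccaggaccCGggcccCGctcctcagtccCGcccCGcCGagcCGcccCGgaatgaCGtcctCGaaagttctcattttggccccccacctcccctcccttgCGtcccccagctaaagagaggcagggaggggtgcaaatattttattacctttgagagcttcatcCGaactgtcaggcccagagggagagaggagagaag
Nkx2-3: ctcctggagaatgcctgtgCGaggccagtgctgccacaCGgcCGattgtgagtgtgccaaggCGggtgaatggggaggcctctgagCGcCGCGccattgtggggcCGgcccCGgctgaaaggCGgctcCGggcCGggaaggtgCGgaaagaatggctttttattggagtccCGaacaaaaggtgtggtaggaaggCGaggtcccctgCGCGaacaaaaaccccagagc

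The other 3 sequences belong to Nkx2-1 and its closest relative, Nkx2-4. One is the narrow peak upstream of Nkx2-1 that the MGE list alone held (chr12:56537573-56537693, minus strand). The others are the 250 bases before the annotated 5′ end of Nkx2-1 (chr12:56536909-56537158, minus strand) and of Nkx2-4 (chr2:147085446-147085695, minus strand), shown because the first gene was marked in 3 lists and the second had no listed peak.
Nkx2-1, MGE peak: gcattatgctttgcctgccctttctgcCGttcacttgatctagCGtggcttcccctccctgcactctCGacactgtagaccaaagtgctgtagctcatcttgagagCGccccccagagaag
Nkx2-1, upstream: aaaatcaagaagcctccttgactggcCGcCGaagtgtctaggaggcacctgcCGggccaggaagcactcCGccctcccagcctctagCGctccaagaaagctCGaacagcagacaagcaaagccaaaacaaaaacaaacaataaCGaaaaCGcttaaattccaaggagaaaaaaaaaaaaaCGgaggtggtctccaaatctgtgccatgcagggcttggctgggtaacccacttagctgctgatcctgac
Nkx2-4, upstream: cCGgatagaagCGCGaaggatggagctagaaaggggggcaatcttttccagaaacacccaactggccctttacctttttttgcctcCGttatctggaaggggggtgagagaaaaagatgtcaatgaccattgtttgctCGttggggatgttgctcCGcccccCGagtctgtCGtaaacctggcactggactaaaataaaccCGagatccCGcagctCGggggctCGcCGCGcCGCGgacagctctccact

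A listed peak was found for 6 of the 8 genes in the MGE, 7 in the LGE, 7 in the CGE and 3 in the CTX. In the same window, 66.8% of all protein-coding genes had a peak in the MGE, 65.1% in the LGE, 65.6% in the CGE and 65.2% in the CTX. The share of the Nkx genes was thus close to or above that of all genes in the eminences and below it in the CTX. The genes with a CTX peak were Nkx2-3, Nkx6-1 and Nkx6-2. Without Nkx2-2 and Nkx2-4, for which a peak number was skipped, the counts were 5 of 6 genes in the MGE, 6 in the LGE, 6 in the CGE and 3 in the CTX. For Nkx2-4 itself no list held a peak, whereas 30.4% of protein-coding genes had none in any list.

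**Figure D1:**
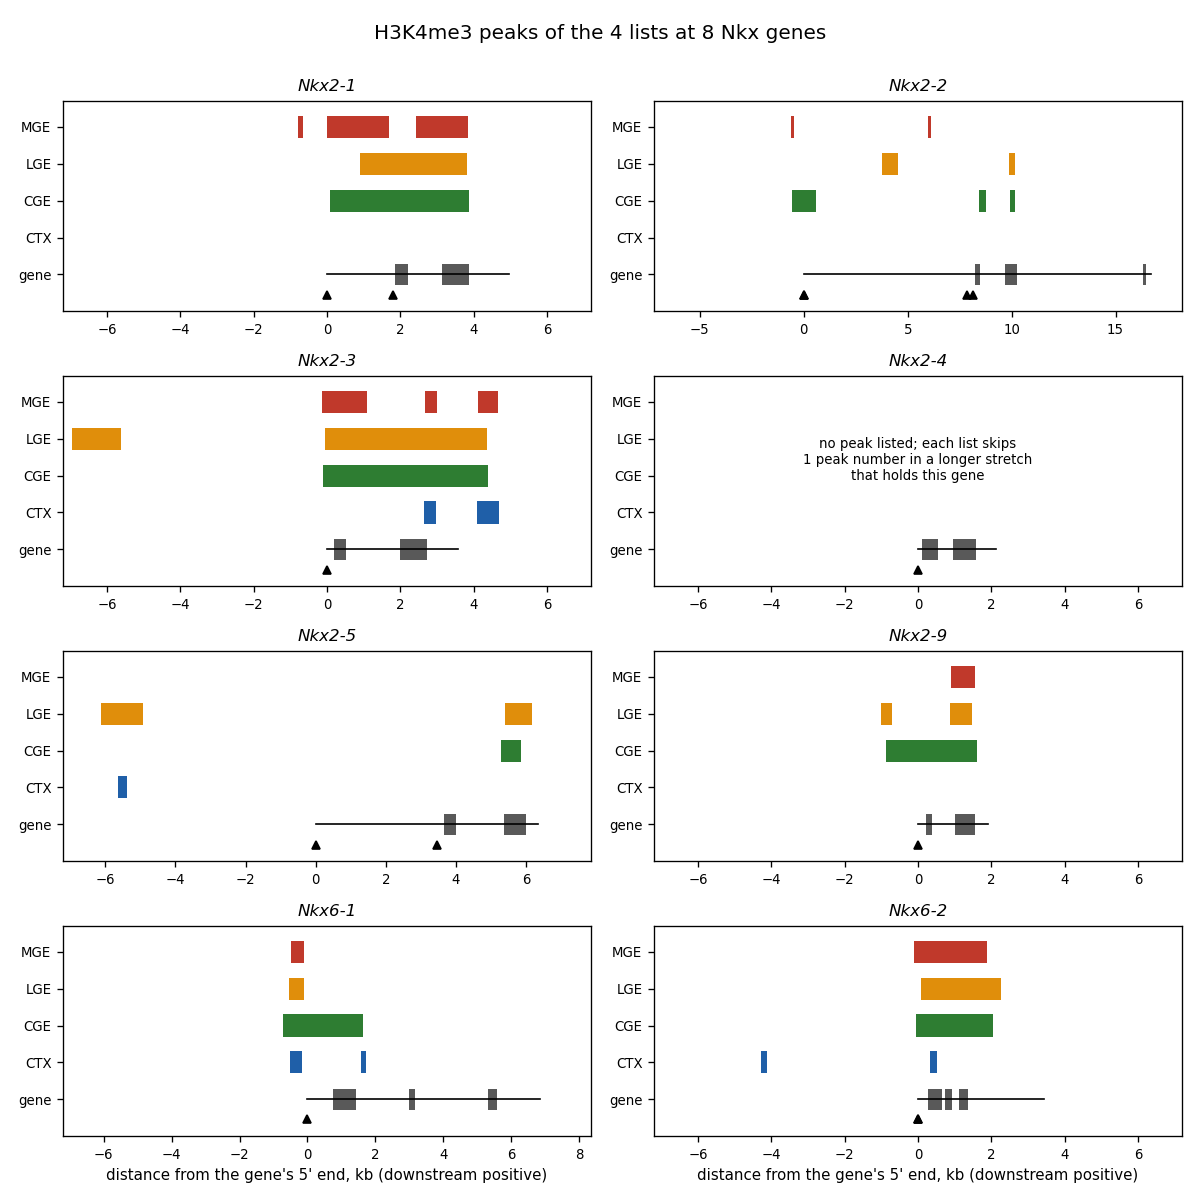
Listed H3K4me3 peaks (coloured bars) at the 8 genes, plotted by distance in kb from the gene's 5′ end along the direction of transcription, with 1 line for each pooled list. Black lines are gene bodies, grey boxes coding exons and triangles annotated TSSs. CTX peaks appear only at Nkx2-3, Nkx2-5 (outside its window), Nkx6-1 and Nkx6-2. Each list skips 1 peak number in a stretch that holds Nkx2-4, and in the CTX this stretch holds Nkx2-2 too.

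Nkx2-1, Nkx2-2 and Nkx2-9 were marked in all 3 eminences and had no listed peak in the CTX. This pattern was seen in 1.08% of protein-coding genes. Nkx2-3, Nkx6-1 and Nkx6-2 were marked in all 4 lists, and Nkx2-5 in the LGE and CGE. For Nkx2-2, the CTX list skipped 1 peak number in a stretch of 468855 bp that holds the whole gene, so the absence of a CTX peak there is less certain than at Nkx2-1 and Nkx2-9.

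How often the mark reached a start differed from list to list. A peak lay over at least 1 annotated TSS for 3 of the 8 genes in the MGE, 2 in the LGE, 6 in the CGE and 0 in the CTX. Among all protein-coding genes the share was 57.2% in the MGE, 59% in the LGE, 59.8% in the CGE and 57% in the CTX. A peak number was skipped for Nkx2-2 and Nkx2-4. Without them the counts were 3 of 6 genes in the MGE, 2 in the LGE, 5 in the CGE and 0 in the CTX. CGE was the list in which most of the 8 genes carried the mark over a start, and in the CTX no listed peak lay over one. At Nkx2-2, Nkx2-9 and Nkx6-1 this rested on CGE peaks with −log10 q values of 2.47, 3.78 and 3.47. Here q is the corrected p-value of the peak caller. These values lay at the 5.68, 10.8 and 9.78 percentiles of the CGE list, which also had the widest peaks by median (1240 bp).

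Nkx2-1 (chr12:56531958-56536908, minus strand) had 3262 covered bases in 3 MGE peaks, 2934 in 1 LGE peak and 3804 in 1 CGE peak. These values lay at the 98.3, 94.4 and 96.7 percentiles of their lists. By −log10 q the peaks stood lower. The LGE peak had 3.52, at the 11.4 percentile of the LGE peaks, and the CGE peak 30.9, at the 34.9 percentile. The highest of the MGE peaks was 16, at the 72.2 percentile. In MGE, a peak of 1718 bp ran from 15 bp upstream of the 5′ end to 1702 bp downstream, and it was separate from a second peak of 1423 bp over the last coding exon. The CGE list joined this stretch into 1 peak of 3804 bp that began 81 bp downstream of the 5′ end, and the LGE peak of 2934 bp began 887 bp downstream. The 5′ end itself therefore lay under a peak in the MGE alone. The second annotated TSS, 1802 bp further in, lay under the LGE and CGE peaks and 100 bp from the edge of the MGE peak.

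The narrow MGE peak upstream of Nkx2-1 was 121 bp wide, with a fold enrichment of 2.36 and a −log10 q of 6.19. Fold enrichment is the authors' ratio of reads to the estimated background, averaged over the peak, and q is the p-value corrected by the peak caller. Of 4021 bases marked in any list at this gene, 217 were marked in the MGE alone, 36 in the CGE alone and 0 in the LGE alone. The MGE and CGE lists had 3045 bases in common, 93.3% of the MGE bases and 80% of the CGE bases. The MGE and LGE lists shared 2211 bases, 67.8% of the MGE bases and 75.4% of the LGE bases, and the CGE peak contained all 2934 bases of the LGE peak. The same 2211 bases were marked in all 3 eminences. An antisense gene, Gm26973, overlaps Nkx2-1. It has a start under the peaks of all 3 eminences and a pair of starts 157 and 208 bp from the narrow MGE peak, and the mark does not tell strands apart.

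Nkx2-9 (chr12:56611389-56613284, minus strand), a gene of the ventral midline of the neural tube, lies 74480 bp from Nkx2-1 on the same strand. It had 675 covered bases in the MGE, 929 in the LGE, 2486 in the CGE and 0 in the CTX, which placed it at the 46.2, 44.6 and 89.1 percentiles in the eminences. The MGE peak began 889 bp downstream of the TSS and the nearest LGE peak ended 712 bp upstream of it, while the CGE peak of 2486 bp ran across it. All 3 eminences shared 591 bases over the second coding exon and the intron before it. Among all protein-coding genes, Nkx2-9 thus stood near the middle in the MGE and LGE, where Nkx2-1 stood near the top. Its covered bases there were below the medians of 759 and 1059 over all these genes. Those medians include genes with no peak, so Nkx2-9 stood lower still among the genes with a peak. The genes on either side of the pair were unlike each other, with Mbip covered in all 4 lists (868 bases in the MGE, 1061 in the LGE, 963 in the CGE and 729 in the CTX) and Pax9 covered in the MGE (165 bases) and CGE (395 bases).

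Nkx2-2 (chr2:147177546-147194243, minus strand), which specifies the most ventral neuronal progenitors of the neural tube and acts later in oligodendrocytes, had 318 covered bases in the MGE, 1014 in the LGE, 1769 in the CGE and 0 listed in the CTX. The percentiles were 37.3 in the MGE, 47.8 in the LGE and 75.7 in the CGE. The listed peaks lay mostly in different places, but their −log10 q values were low. They were 2.2 and 1.64 in the MGE, 2.04 and 1.16 in the LGE, and 2.05, 3.02 and 2.47 in the CGE. The overlap between lists was not computed for all genes, so it cannot be said whether a low overlap is particular to Nkx2-2. The MGE and LGE lists shared 0 bases, MGE and CGE shared 66, and LGE and CGE shared 244, so that 2791 bases were marked in at least 1 list and none in all 3. In each eminence the stretch with 1 skipped peak number also entered the window of Nkx2-2 from its 3′ side, so these covered bases, percentiles and overlaps leave out any part of that peak that lay in the window.

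The 244 bases shared by LGE and CGE lay in the main coding exon of Nkx2-2, beside the start of the antisense gene Nkx2-2os. The LGE peak of 257 bp began 13 bp and the CGE peak of 255 bp began 2 bp inside that antisense gene. At the distal TSSs of Nkx2-2, the CGE list had a peak of 1166 bp and the MGE list a peak of 146 bp that ended 489 bp upstream. The proximal TSSs, which lie nearest to the first coding exon, lay under no listed peak, and the nearest was a CGE peak 295 bp away. Which starts give coding transcripts was not examined. In the MGE and CTX lists these starts lay inside the stretch with the skipped number, so whether they were marked there could not be read. The other MGE peak, 172 bp wide, lay within the antisense gene 6430503K07Rik. The CGE peak near the proximal TSSs had a −log10 q of 3.02, at the 8.13 percentile of its list. On the far side of Nkx2-2 from Nkx2-4, the next protein-coding gene, Pax1, had 1077 covered bases in the LGE and 696 in the CGE and no listed peak in the MGE or CTX.

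Nkx2-4 (chr2:147083316-147085445, minus strand) lies 92100 bp from Nkx2-2 and is expressed in the ventral diencephalon. It had 0 listed peaks in all 4 lists, and no list had a peak within 98639 bp of the gene on one side or 122993 bp on the other. Its neighbour Xrn2, which encodes a broadly expressed exoribonuclease and whose gene ends 5315 bp away, had no listed peak either. Each of the 4 lists skipped exactly 1 peak number in the stretch that contains both genes. In CGE this stretch spans chr2:146960323-147184084, or 223762 bp, and it is similar in the LGE and MGE and longer in the CTX. Where in the stretch the skipped peak lay could not be read from the lists, so Nkx2-4 cannot be called unmarked. Of 562 protein-coding genes whose promoter had at least the ratio of observed to expected CpG of the Nkx2-4 promoter, 18, or 3.2%, had no listed peak in any region.

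Nkx2-3 (chr19:43612325-43615892, plus strand), known for its part in the spleen, the gut and the pharynx, was the most widely marked of the relatives. It had 2120 covered bases in the MGE, 4407 in the LGE, 4509 in the CGE and 937 in the CTX, at the 93, 98.5, 98.1 and 58.2 percentiles. In LGE and CGE, 1 peak spanned the whole gene, from 52 or 109 bp upstream of the TSS to beyond the 3′ end, and the CGE peak contained all 4407 bases of the LGE peak. In MGE the same span was broken into peaks of 1241, 342 and 537 bp. Both CTX peaks, 336 and 601 bp wide, coincided with the MGE peaks at the end of the gene and beyond it, and the nearest CTX peak began 2649 bp downstream of the TSS.

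Covered bases in the LGE and CGE lists were thus higher at Nkx2-3 than at Nkx2-1, and lower in the MGE list. The CTX peaks at Nkx2-3 had −log10 q values of 5.35 and 7.39, and 91.8% of their bases lay under an MGE peak. The stretches marked in all 4 lists were 323 bp at the end of the coding exon and the start of the 3′ untranslated region, and 228 bp downstream of the annotated gene. The latter is the Nkx2-3 sequence given above, with 17 CpG in 228 bases.

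Nkx2-5 (chr17:26838664-26845009, minus strand), a regulator of heart development, had 0 covered bases in the MGE, 851 in the LGE, 566 in the CGE and 0 in the CTX. The percentiles were 41.8 in the LGE and 36.5 in the CGE. No peak lay over a TSS, and the nearest was 1828 bp away. The LGE peak of 780 bp and the CGE peak of 566 bp shared 450 bases at the last coding exon. A further LGE peak of 1196 bp reached the window with 71 of its bases, and CTX had a peak of 259 bp in the same place that stayed 5382 bp from the 5′ end. The −log10 q values ran from 1.59 to 2.08 among the peaks in the window, at the 1.1 to 4.26 percentiles of their lists.

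**Figure D2:**
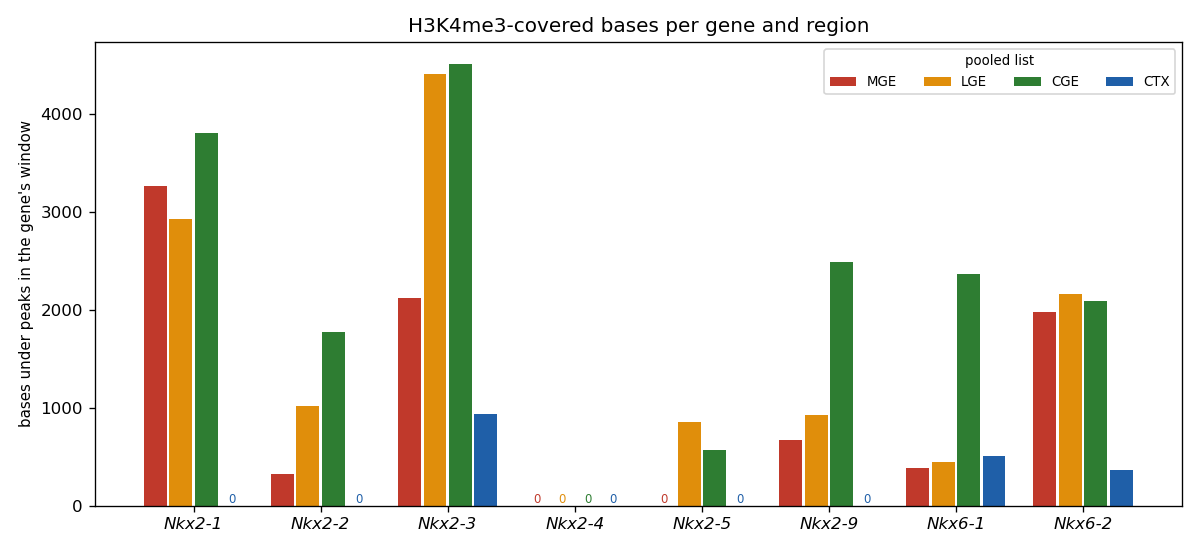
Bases under H3K4me3 peaks in the window of each gene (vertical axis, bases) in the 4 pooled lists (bars), without error bars because each list pools its replicates. The highest bars are those of Nkx2-3 in the LGE (4407) and CGE (4509) and of Nkx2-1 in the CGE (3804), and CTX bars reach at most 937.

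Nkx6-1 (chr5:101658139-101664996, minus strand) is needed for ventral spinal progenitors and motor neurons and for the beta cells of the pancreas. It had 384 covered bases in the MGE, 446 in the LGE, 2368 in the CGE and 503 in the CTX. The percentiles were 38.4, 36.3, 87.7 and 41. A peak just upstream of the TSS was common to all lists, with edges nearest the gene at 113 bp in the MGE, 106 bp in the LGE and 155 bp in the CTX, while the CGE peak ran on across the TSS to 1641 bp inside the gene. The stretch marked in all 4 lists was 342 bp long, ending 155 bp upstream of the TSS, and contained 342 of the 384 MGE bases. Of the bases marked in the CGE, 1859 were marked in no other list. The 300-bp RefSeq promoter of Nkx6-1 (chr5:101664662-101664961) belongs to another start and lies inside the gene, downstream of the TSS used here. It lay wholly under the CGE peak and under no peak elsewhere, whereas the short MGE, LGE and CTX peaks lay upstream of that TSS.

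Among the CTX peaks at the Nkx genes, this upstream peak had the highest fold enrichment, 4.91, at the 47.1 percentile of the CTX list, and its −log10 q was 4.75. The MGE peak at the same place, with a fold enrichment of 4.84, was at the 54.2 percentile. Nkx6-1 thus carried a short mark at the same place in the CTX and MGE, near the middle of both lists by fold enrichment.

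Nkx6-2 (chr7:139579376-139582797, minus strand), which is expressed in ventral progenitors and in oligodendrocytes, was marked alike in the 3 eminences. It had 1974 covered bases in the MGE, 2160 in the LGE, 2094 in the CGE and 366 in the CTX, at the 91.4, 86.9, 83.4 and 38.7 percentiles. Each eminence had 1 peak over all 831 coding bases. The MGE peak began 104 bp and the CGE peak 43 bp upstream of the 5′ end, and the LGE peak 91 bp downstream of it. MGE and CGE shared 1913 bases, 96.9% of the MGE bases. In CTX, the peaks of 198 and 168 bp had −log10 q values of 1.11 and 1.49. The first lay within the coding sequence and inside the peaks of all 3 eminences, and it is the Nkx6-2 sequence given above. A minimum −log10 q of 2 removed both, which left no CTX peak at Nkx6-2. The 3′ end of Inpp5a overlaps that of Nkx6-2, outside these peaks.

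The 2 NK6 genes had unlike profiles in the eminences. In MGE, Nkx6-2 stood at the 91.4 percentile and Nkx6-1 at the 38.4 percentile, and in the LGE at the 86.9 and 36.3 percentiles, whereas in the CGE they were close, at 83.4 and 87.7. No test of this difference was possible with 1 list per region.

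**Figure D3:**
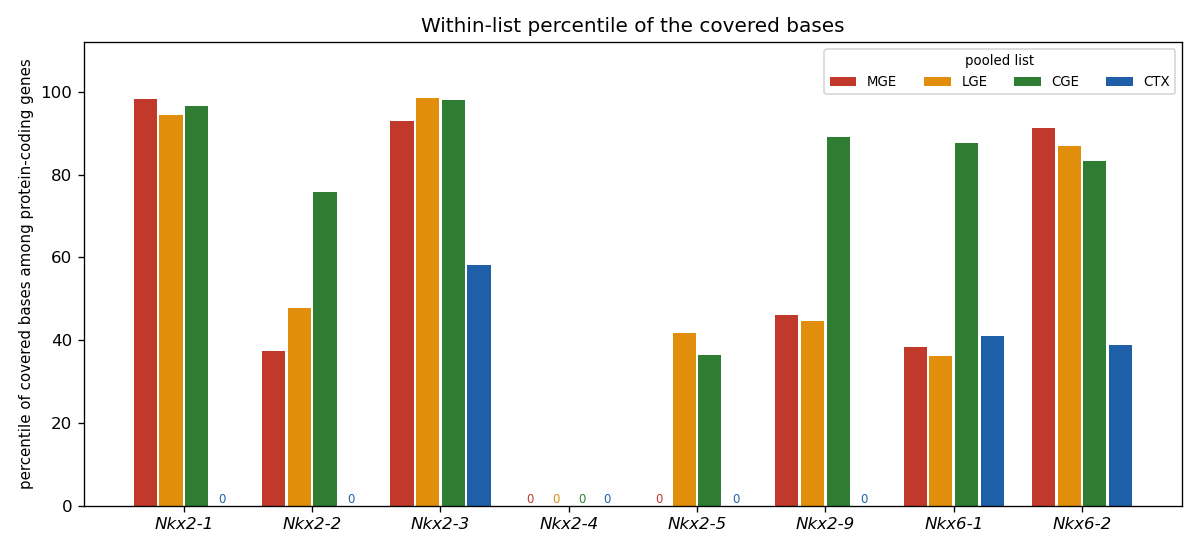
Percentile of each gene's covered bases among the 21951 protein-coding genes of the same list (vertical axis, percent of genes with fewer covered bases), with 1 bar for each pooled list. Nkx2-1, Nkx2-3 and Nkx6-2 exceed 83 in every eminence, Nkx2-2, Nkx2-9 and Nkx6-1 do so at most in the CGE, and the CTX bars do not exceed 58.2.

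The 7 genes with a listed peak were compared by the pattern of their percentiles over the 4 regions, and Nkx2-4 had no pattern to compare. The distance used was the Euclidean distance between the 4 percentiles of 2 genes. A gene with no peak in a list was set at the bottom of the scale, so a missing peak weighs heavily in the distance. Nkx2-2 and Nkx2-9 were the closest pair among the 7 genes with a peak, at 16.3 percentile points, followed by Nkx2-3 and Nkx6-2 at 27.1. The distance from Nkx2-1 was 42.2 to Nkx6-2, 58.6 to Nkx2-3 and 72.5 to its neighbour Nkx2-9. Among all protein-coding genes, the nearest to Nkx2-1 were Sp9 (2.72), Slc32a1 (4.39) and Wnt3 (18.2). Sp9 is a transcription factor of ganglionic eminence lineages and Slc32a1 encodes the vesicular GABA transporter. The genes were ranked by distance alone. Wnt3 and most of the nearest genes listed below are given without a role, and no shared role was read from these lists.

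The genes nearest to Nkx6-2 were Gsx2 (2.23), a homeobox gene of LGE progenitors, Caly (2.58) and Adgra1 (7.49), and those nearest to Nkx2-3 were the homeobox gene Dlx5 (4.62), Csrnp3 (4.88) and Pakap (4.93). For Nkx2-2 they were Fam43b (4.19), Fam196b (5.37) and Zcchc12 (6.67), and for Nkx2-9 Nphs1 (6.93), Zcchc12 (9.99) and, farther off, Doc2b. For Nkx6-1 they were Pear1 (4.75), Prlhr (6.29) and Hmx3 (8.85), and for Nkx2-5 Mag (1.01), Lyzl1 (1.35) and Ankrd53 (1.62). A small distance says only that 2 genes had like percentiles in these 4 lists.

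The peaks at the Nkx genes had low fold enrichment, whether they were narrow or wide. The windows held 11 peaks in the MGE, 10 in the LGE, 9 in the CGE and 6 in the CTX, and 35 of these 36 peaks were below the median fold enrichment of their list. The exception was the MGE peak upstream of Nkx6-1. The median percentile of fold enrichment was 24.1 in the MGE, 7.21 in the LGE, 7.91 in the CGE and 22.3 in the CTX. In width they ranged more, with median percentiles of 48.4, 22.2, 88.6 and 20.6. The LGE and CGE peaks over Nkx2-3 lay at the 99.8 and 99.7 percentiles of width and at the 2.75 and 9.04 percentiles of fold enrichment, and the CGE peak over Nkx2-1 at the 99.2 and 10 percentiles. Fold enrichment is an average over a peak, so a wide peak and a narrow one with the same value do not hold the same signal.

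**Figure D4:**
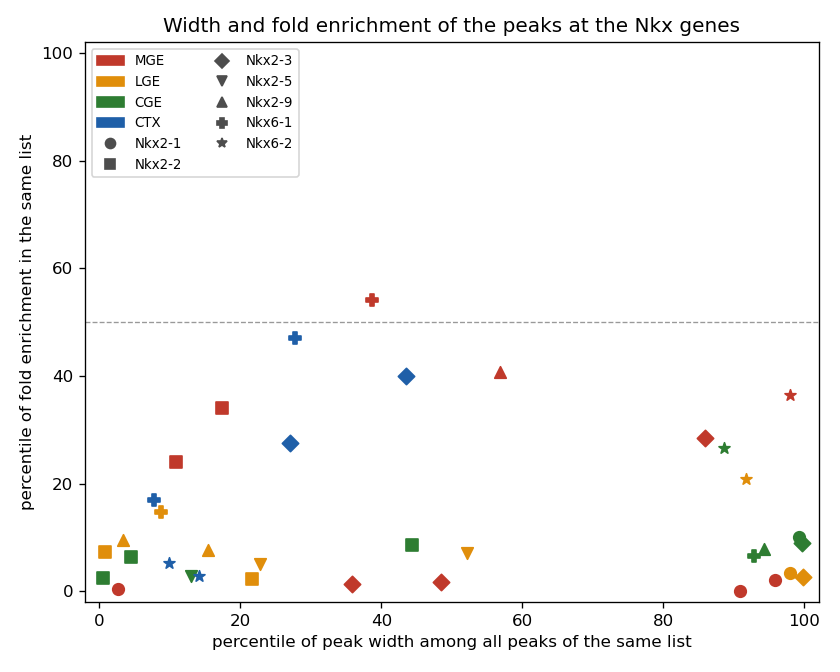
Width (horizontal axis) and fold enrichment (vertical axis) of the 36 peaks at the Nkx genes, each as a percentile among all peaks of its own list. Colour gives the list, the symbol the gene, and the dashed line the list median of fold enrichment. Only 1 peak, that of MGE at Nkx6-1, lies above the line, and the wide peaks at Nkx2-1, Nkx2-3, Nkx2-9 and Nkx6-1 lie near the bottom right.

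A −log10 q below 2 was found for 6 of the 36 peaks. They were 1 in the MGE, 2 in the LGE, 1 in the CGE and 2 in the CTX, and they lay at Nkx2-2, Nkx2-5 and Nkx6-2. In the whole lists 27% of peaks were below 2 in the MGE, 3.84% in the LGE, 3.24% in the CGE and 11.8% in the CTX. Over all 36 peaks, 12282 bases were coding, 7855 were other exonic bases of the same gene, 13345 intronic, 5762 upstream of the 5′ end and 2757 beyond the 3′ end. Bases of different lists were added here, so a position marked in several lists was counted in each. Whole peaks were counted, so the upstream bases include the part of an LGE peak at Nkx2-5 that lay outside its window. Most of the bases counted in this way lay within the genes. The share for all protein-coding genes was not computed.

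The marked stretches were richer in CpG than the rest of their windows at each of the 7 genes with a listed peak. The share of all protein-coding genes with this trait was not computed, so it is not read as particular to the Nkx genes. At Nkx2-1 there were 6.74 CpG per 100 bases under the peaks of any list and 1.52 in the rest of the window. The same values were 5.55 and 2.72 at Nkx2-2, 5.79 and 2.75 at Nkx2-3, and 10.5 and 2.54 at Nkx2-5. They were 4.58 and 1.11 at Nkx2-9, 9.22 and 3.14 at Nkx6-1, and 8.84 and 2.79 at Nkx6-2. The window of Nkx2-4 had 3.05 per 100 bases as a whole, within the range of 2.02 to 4.4 of the other windows.

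The 300-bp RefSeq promoters, from 250 bases before to 50 bases after the RefSeq start on GRCm38.p6, were found for all 8 genes. The RefSeq start need not be the 5′ end of the gene used above, as at Nkx6-1. Observed over expected CpG was 0.559 at Nkx2-1, 0.791 at Nkx2-2, 0.559 at Nkx2-3, 1.1 at Nkx2-4, 0.466 at Nkx2-5, 0.571 at Nkx2-9, 1.18 at Nkx6-1 and 0.972 at Nkx6-2, against a median of 0.384 over 32851 promoters. Nkx2-4, Nkx6-1 and Nkx6-2 thus had the most CpG-rich promoters of the 8, at the 97.9, 99.3 and 92.4 percentiles of all promoters, and the order of the genes by promoter CpG was not their order by covered bases. The letters CAAGTG, the core bound by NK2 factors, were found on either strand in 1 of the 8 promoters, that of Nkx2-2, and in 13.6% of all promoters. TAATTA, a core bound by many homeodomains, was in 0 of the 8 and in 5.29% of all promoters. Of the 6 sequences shown, only the narrow MGE peak of Nkx2-1 held CAAGTG, once, on the strand opposite to the gene. A match of these letters is not a binding site.

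The region with the most covered bases was CGE for Nkx2-1, Nkx2-2, Nkx2-3, Nkx2-9 and Nkx6-1, and LGE for Nkx2-5 and Nkx6-2. None of the 8 was most covered in the MGE or CTX. Among all protein-coding genes with a peak in any list, the most covered region was MGE for 7.58%, LGE for 15.6%, CGE for 69.6% and CTX for 6.18%, so that 5 of 7 genes with CGE highest is near the share over all genes. This order depended on the measure. By percentile within the list, 2 genes, Nkx2-1 and Nkx6-2, were highest in the MGE, 2 in the LGE and 3 in the CGE.

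The NK genes Nkx1-1, Nkx1-2, Nkx2-6, Nkx3-2 and Nkx6-3, which are not among the 8, were as often marked in the CTX as in the MGE and LGE. Of these 5 genes, 4 had a peak in the MGE, 4 in the LGE, 5 in the CGE and 4 in the CTX, and none had a peak over a TSS in any of the 4 lists. Their median covered bases were 389 in the MGE, 597 in the LGE, 467 in the CGE and 285 in the CTX, where those of the 8 genes were 529.5, 971.5, 2231 and 0, and those of all protein-coding genes 759, 1059, 1152 and 768. No peak number was skipped in the windows of these genes. Nkx2-6 was the only one of the 5 with a peak in the 3 eminences and none in the CTX.

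A list of 15 genes of ventral patterning was read in the same way: Shh, Ptch1, Smo, Gli1, Gli2, Gli3, Foxa2, Olig2, Pax6, Dbx1, Dbx2, Irx3, Gsx2, Lhx6 and Lhx8. A peak was listed for 13 of them in the MGE, 13 in the LGE, 14 in the CGE and 12 in the CTX, with a median percentile of 90.5, 87.3, 91.7 and 40. Shh, the ligand that induces the Nkx genes, had 1496 covered bases in the MGE, 1417 in the LGE, 3701 in the CGE and 0 in the CTX, with no peak over its TSSs in any list. Lhx8, which acts downstream of Nkx2-1 in the MGE neurons, had 2066, 1208, 2490 and 0. Dbx1 had no listed peak in the LGE, Dbx2 none in the MGE, and Foxa2, the floor plate factor, none in any list. The receptor and mediator genes Ptch1, Smo, Gli1, Gli2 and Gli3 were marked in all 4 lists, unlike Nkx2-1 and Shh.

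Beyond the window, the 20 kb on either side of each gene were read after the values had been seen. Nkx2-1 had 4 further peaks in the MGE, 1 in the LGE, 3 in the CGE and 0 in the CTX, all of them past its 3′ end. At the other genes with a peak there was at most 1 such peak in a list, with 1 in each of MGE, LGE and CGE at Nkx2-3 and 1 in the CTX at Nkx2-5. The MGE peak with the highest −log10 q near Nkx2-1, 26.3, was 305 bp wide, had a fold enrichment of 4.88 and lay 6225 bp past the gene, and no other list had a peak there. A peak of 1577 bp in the MGE and one of 1302 bp in the CGE lay over the start of Sfta3-ps, an annotated noncoding transcript, 2399 and 2531 bp past the gene. The farthest pair of places, about 10 kb and more from the gene, was marked in the MGE and CGE, and the nearer of them in the LGE as well.

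**Figure D5:**
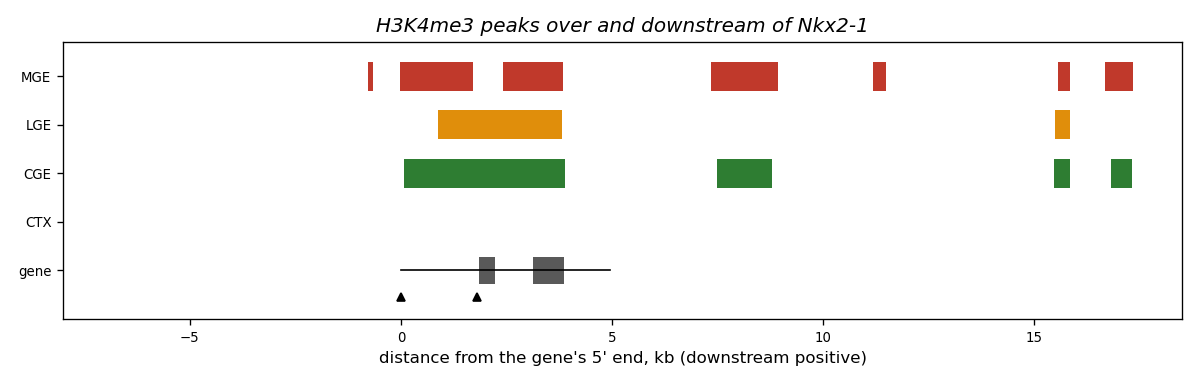
Listed H3K4me3 peaks over and downstream of Nkx2-1, by distance in kb from its 5′ end along the direction of transcription, in the 4 pooled lists. The black line is the gene body, grey boxes are coding exons and triangles TSSs. Past the 3′ end the MGE list has 4 peaks, CGE 3, LGE 1 and CTX 0.

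Several of these values rested on how the lists were treated. When each list was limited to its 17284 peaks of highest fold enrichment, the MGE list kept no peak at Nkx2-1 or Nkx2-3. In a window of 10 kb, Nkx2-1 had 5144 covered bases in the MGE, 2934 in the LGE and 5106 in the CGE.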

How the data were processed

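H3K4me3 CUT&Tag libraries of MGE, LGE, CGE and CTX were aligned by the authors with Bowtie2 to GRCm38/mm10, filtered of blacklisted regions and of duplicates with Picard, merged over replicates and used to call broad peaks with MACS. SAMtools and deepTools also appear in the submitters' processing notes. Tool versions, the MACS threshold and any control were not given in the sources used here. The deposited lists give peak positions, a fold enrichment (a ratio over background) and −log10 p and q values. The authors' −log10 q grows with depth and was used within lists only, and the fold was compared between lists under 1 alternative only. The reads behind a peak are unknown.

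Libraries were assigned to regions from their titles, and each list was treated as the pool of its region. The protocol says that nuclei of the regions were pooled in equal numbers and does not say for which step, and each library was read as 1 region. Peaks were joined to GENCODE M21 genes in Python 3.11.15, with the genome, promoters and annotation of the same build. Interval arithmetic was tested on simulated data. The genes, the lists compared with them and the windows were chosen with earlier results of these data known. Named genes were the 8 genes, 5 other NK genes (1 more is not reported here), nearest neighbours and overlapping genes, 15 ventral patterning genes and, for each marked gene, the 3 nearest by percentiles. Genes near Nkx2-1 within 20 kb, Xrn2's skipped peak number and peaks over TSSs were examined after seeing the data. Alternatives were a minimum −log10 q, lists of equal length, a common minimum width, other windows, 50% of a peak inside the window, joined peaks and 2 other measures of the most covered region. Homeodomain sequences were not used here, so the planned identity between the proteins was not computed. The −log10 p column was not used.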

Additional observations from a re-analysis of the deposited data

How the results depend on the processing

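Of 116 alternative values, 106 stayed within 1.5 times of the reported count. The number of genes with a listed peak did so in every region under every alternative run. This bound is wide for such small counts. In the MGE the number fell from 6 to 4 with lists of equal length by fold, and in the CTX it ran from 2 to 4. Nkx2-2 kept no MGE peak with lists of equal length by −log10 q or with the common minimum width, so its pattern of 3 marked eminences was lost there. The number most covered in CGE, 5 as reported, was 3 in a window of 10 kb, 3 by percentile within the list and 1 by the highest fold of a peak. The number most covered in MGE, 0 as reported, was 1, 2 and 3 in the same order. By the highest fold, 1 gene was highest in LGE and 2 in CTX. Limiting lists to equal length by fold left 1 gene with an MGE peak over a TSS in place of 3, and the gene 5′ end alone left 1 in LGE in place of 2. The count of genes with a peak over a TSS, with all its settings, and the removal of genes with a skipped peak number were added after seeing the data. The cause of the changes was not tested. No paired analysis was possible because every list pools the replicates of its region, and no replicate could be left out either. The reads behind each peak are unknown, so a missing peak may be one below the calling threshold. Sequencing depth differed between the regions. By the depths in the paper, each CGE replicate was deeper than any LGE replicate, and each LGE replicate was deeper than any MGE replicate. The part of depth in the differences between lists, such as the wide CGE peaks over starts, was not tested.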
